A study of Mus musculus with 10 samples.

Results

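Transcripts of 9 enzymes of the methionine cycle and its outlets were examined in the livers of mice bearing pancreatic tumours. The genes are Mat1a, Mat2a, Gnmt, Bhmt, Bhmt2, Ahcy, Cbs, Cth and Pemt, taken as a list of symbols. All 9 are among the 24972 gene symbols of the deposited table, and all 9 were among the 11110 genes whose mean was high enough to be tested. RNA came from wild-type (WT) mouse liver, with 4 libraries from mice bearing the KPC line 6419c1, labelled T cell-low, and 6 from mice bearing the KPC line 6555c3, labelled T cell-high. KPC lines derive from a genetically engineered mouse model of pancreatic ductal adenocarcinoma (PDAC). Each class rests on a single tumour line, so line and T cell class cannot be told apart, and no liver of a mouse without a tumour was analysed here. The sources used here give no mouse age, strain or sex. No label ties each library to a mouse of its own, and the p-values then cover only the spread among the libraries, part of which may be technical.

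The methionine cycle supplies the methyl groups of the liver. Methionine adenosyltransferases make S-adenosylmethionine (SAM) from methionine, methyltransferases such as Gnmt and Pemt use it, and Ahcy hydrolyses the product S-adenosylhomocysteine to homocysteine. Homocysteine is then either methylated back to methionine, in liver partly by Bhmt with betaine as the donor, or passed through Cbs and Cth to cysteine. Hepatocytes carry most of this capacity, and the exchange of the hepatic enzyme gene Mat1a for the widely expressed Mat2a is a known feature of dedifferentiating and injured liver.

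Libraries were read by counting transcript 3′ ends, and the deposited values are called scaled counts below. The labels used here do not give the exact scaling. Whole reads could not be recovered from the values, since only 5.1% to 7.99% of low values in a library fell on multiples of 1 step. Scaled totals were 7060777 to 8257373 for the T cell-low group and 7000659 to 7513620 for the T cell-high group, with 13370 to 14300 genes above 0 in a library. All 12 hepatocyte markers were expressed, and they summed to 641958 to 873325 for T cell-low livers and to 449744 to 771208 for T cell-high livers. Some libraries stood apart from their group. T cell-high 1, 3, 5 and 6 had a gap of 1 log2 unit or more to the other 6 libraries for 98 genes, and T cell-low 2, 3 and 4 had such a gap to the other 7 for 316 genes (0.882% and 2.84% of those tested). Values against T cell-high 2 and 4 alone, or without single libraries, are therefore given below as well, where these change a call or a direction. That pair was set by these same values, so a change of direction against it is a description and not an independent check.

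RefSeq promoters (GRCm38.p6, 250 bases before to 50 after the start) were matched by symbol for 7 of the 9 genes, and none was matched for Mat1a or Cth in the table used. Those of Mat2a and of the neighbouring homologues Bhmt and Bhmt2 are shown, since these 3 genes carry the contrasts between related enzymes described below. Capitals mark the motif CCAAT, which reads ATTGG when it lies on the other strand, and the motif TATAAA.
Mat2a: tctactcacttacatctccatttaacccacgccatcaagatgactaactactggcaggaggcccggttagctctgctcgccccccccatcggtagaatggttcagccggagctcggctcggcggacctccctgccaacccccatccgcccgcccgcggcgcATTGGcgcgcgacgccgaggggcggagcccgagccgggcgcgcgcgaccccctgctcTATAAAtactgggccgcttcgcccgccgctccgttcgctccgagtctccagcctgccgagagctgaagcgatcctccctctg
Bhmt: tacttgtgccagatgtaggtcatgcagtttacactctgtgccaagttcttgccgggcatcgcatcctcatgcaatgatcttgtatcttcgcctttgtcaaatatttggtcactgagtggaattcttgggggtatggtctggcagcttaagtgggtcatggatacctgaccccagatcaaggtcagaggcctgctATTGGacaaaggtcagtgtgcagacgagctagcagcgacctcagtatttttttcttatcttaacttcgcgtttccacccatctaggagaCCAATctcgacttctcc
Bhmt2: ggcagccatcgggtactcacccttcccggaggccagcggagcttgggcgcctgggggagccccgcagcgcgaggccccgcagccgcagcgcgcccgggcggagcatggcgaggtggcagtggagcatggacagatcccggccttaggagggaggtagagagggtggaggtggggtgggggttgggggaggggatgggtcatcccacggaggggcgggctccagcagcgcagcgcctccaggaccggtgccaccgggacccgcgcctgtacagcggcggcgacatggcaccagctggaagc
They lie on the minus strand at chr6:72439507-72439806, chr13:93637709-93638008 and chr13:93674253-93674552. The Mat2a promoter has 67% G and C, the Bhmt promoter 48% and the Bhmt2 promoter 73.7%. TATAAA starts at -32 in Mat2a, and CCAAT occurs on the reverse strand at -89 in Mat2a and at -56 in Bhmt, and on the forward strand at +34 in Bhmt. The Bhmt2 window holds none of the 5 motifs searched on both strands, which were the C/EBP core TTGCNNAA, the STAT site TTCNNNGAA, the CCAAT box, the E-box CACGTG and the motif TATAAA, chosen after expression values were seen. CCAAT was found in 6 of the 7 genes and in 37.4% of all RefSeq promoter windows of that length. TTCNNNGAA (Pemt; 8.3% of windows), CACGTG (Cbs; 7.15%) and TATAAA (Mat2a; 13.6%) were found in 1 gene each, TTGCNNAA (10.8%) in 0, and no matches overlapped. A match is a run of letters and does not show binding.

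Mat1a, which encodes the hepatocyte methionine adenosyltransferase, was the 1 enzyme of the 9 that passed the test, and it rose in T cell-low livers. Mat1a (chromosome 14, 41105035 to 41124412, plus strand) had 50692, 147128, 135597 and 148749 scaled counts in T cell-low 1 to 4. The T cell-high libraries had 45132 to 52314, with a median of 46016. 3 of the T cell-low libraries thus lay far above all T cell-high libraries, T cell-low 1 lay among the latter, and the groups overlapped. The mean was 120542 ± 46933 (SD, n = 4) against 47007 ± 2735 (SD, n = 6), and the log2 fold change was 1.24 (SE 0.29, 95% interval 0.61 to 1.87; limma, adjusted p = 0.0237 over all genes tested). As a share of all scaled counts, Mat1a took 1.69% to 1.84% in T cell-low 2, 3 and 4. Its share was 0.718% in T cell-low 1, close to the 0.631% to 0.696% of T cell-high livers. The size of the step between these 3 libraries and the other 7 could not be checked in read counts, and the part of the authors' scaling in it was not tested. In bulk liver, more transcript per hepatocyte and more hepatocytes per sample cannot be told apart.

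**Figure D1:**
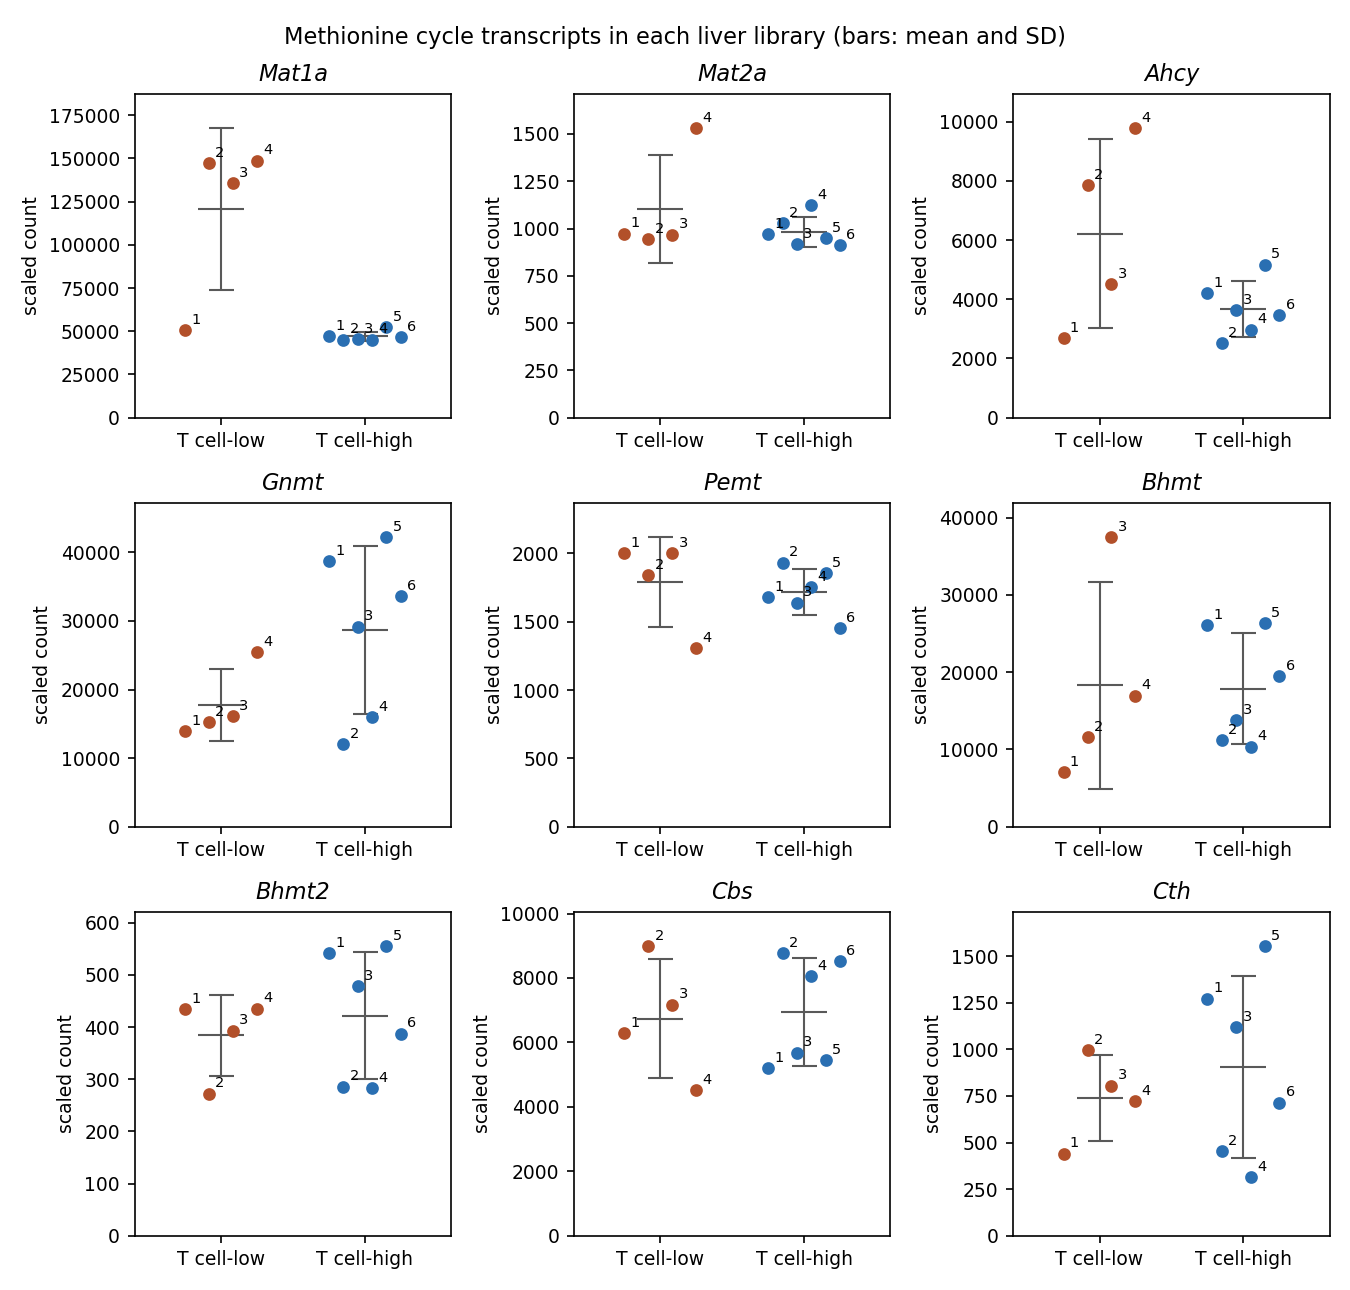
Scaled counts (linear axes from 0) of the 9 enzymes in each liver library, T cell-low in brown and T cell-high in blue, with the replicate number beside each point and bars for the mean and SD. For Mat1a, T cell-low 2, 3 and 4 sit between 135597 and 148749 and the other 7 libraries between 45132 and 52314, and for Gnmt, T cell-high 1, 3, 5 and 6 sit above all others.

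Counted as a list, 1 of 9 enzymes was higher and 0 were lower, where 5.39% of all tested genes were called higher and 7.39% lower (12.8% in all). 1 call among 9 genes is near the 12.8%, so the count says nothing about the enzymes as a group. The groups were without overlap for 0 of the 9, against 7.39% of all tested genes. The median log2 fold change of the 9 was -0.05, beside 0.003 over all genes tested. At an unadjusted p below 0.05 (limma) the count was 1 of 9, where 3830 of all 11110 genes tested were below it.

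The call on Mat1a was lost with several libraries left out in turn and under several other settings, although the direction held in all of them. The adjusted p (limma) was 0.0935, 0.0602 and 0.078 when T cell-low 2, 3 and 4 were left out in turn, and 0.0514, 0.053 and 0.0503 when T cell-high 1, 3 and 6 were. Without T cell-low 1 the log2 fold change was 1.61 (adjusted p = 1.2e-04), and over all 10 omissions it ran from 1.10 to 1.61. Against T cell-high 2 and 4 alone it was 1.29 (adjusted p = 0.527), a fit in which 0 of all genes were called (1027 at an unadjusted p below 0.05). The adjusted p (limma) was also above 0.05 with no filter on low values (0.0858), with a replicate block (0.0981) and with a covariate for T cell-high 1, 3, 5 and 6 (0.189).

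Mat1a was among the steadiest genes within T cell-high livers and not within T cell-low livers. Its SD on the log2 scale was 0.081 over the 6 T cell-high libraries, and 0.531% of tested genes had a smaller one. Over the 4 T cell-low libraries it was 0.754, where the medians over all tested genes were 0.396 (T cell-high) and 0.544 (T cell-low). Tested genes of every level enter these comparisons, and none was made among genes of like level. The gap between the lowest of T cell-low 2, 3 and 4 and the highest other library was 1.37 on the log2 scale, so Mat1a is among the 316 genes that set these 3 libraries apart. The hepatocyte markers summed to 663564 or more in T cell-low 2, 3 and 4, and T cell-low 1, where Mat1a was at the T cell-high level, had 641958. T cell-high libraries had sums of 449744 to 771208, reaching into the range of T cell-low 2, 3 and 4, with Mat1a at 45132 to 52314. The part of hepatocyte content in the Mat1a values was not tested.

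Markers of 4 other cell types differed in summed level between the groups without overlap. Neutrophil markers (4 of 4 tested genes higher, 11 in the list) summed to 659 to 1772 for T cell-low livers, including 915 for T cell-low 1, and to 45 to 219 for T cell-high livers. Those of stellate cells and fibroblasts (0 of 9 tested genes called) summed to 3336 to 4949 against 2375 to 3285, although the median log2 fold change of the 9 was -0.13, so the sum does not stand for most of its members. Those of ductal and tumour cells (1 of 5 tested genes higher, 10 in the list) summed to 1444 to 1942 against 978 to 1440. These 2 ranges all but touched, at 1443.69 and 1439.52. Exocrine pancreas markers summed to 121 to 213 against 254 to 476, but of the 2 tested 1 fell and the other did not pass, and their median log2 fold change was 0.24, so they did not move together. No marker of these lists was at 0 in all libraries. The sums overlapped for hepatocytes, T and NK cells, B and plasma cells, Kupffer cells and macrophages, endothelium and erythroid cells. The part of any of these cells in the values of the enzymes was not tested.

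Mat2a, whose product is the adenosyltransferase of most tissues outside the adult liver and of dividing cells, did not pass. It had 973, 942, 967 and 1530 scaled counts in T cell-low 1 to 4 and 912 to 1123 (median 960) in T cell-high livers. T cell-low 4 was the single library above the T cell-high range. The log2 fold change was 0.14 (SE 0.18, 95% interval -0.25 to 0.53, limma adjusted p = 0.61), and -0.03 without T cell-low 4. Like Mat1a it varied little among T cell-high livers (SD 0.115 on the log2 scale).

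Set against each other within each library, the Mat1a to Mat2a balance followed Mat1a. The log2 of Mat1a minus that of Mat2a was 5.70, 7.28, 7.13 and 6.60 in T cell-low 1 to 4 and 5.33 to 5.78 in T cell-high livers. The mean was 6.68 ± 0.71 (SD, n = 4) against 5.58 ± 0.16 (SD, n = 6), a difference of 1.10 given as a description without a test. Its absolute size also holds how well each 3′ end is counted, so that the change between libraries is what can be read. Mat2a (chromosome 6, 72432799 to 72439558, minus strand) shares 14.1% of the 50-base words at its transcript ends with Gm9523, and Mat1a shares 0%.

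Ahcy, the hydrolase that removes the inhibitory product of methylation, had 2700, 7865, 4513 and 9782 scaled counts in T cell-low 1 to 4. T cell-high livers had 2516 to 5175, with a median of 3561. T cell-low 2 and 4 lay above every T cell-high library, and T cell-low 1 and 3 lay within their range. The log2 fold change was 0.63 (SE 0.33, 95% interval -0.08 to 1.34, limma adjusted p = 0.189), and it passed without T cell-low 1 (0.98, adjusted p = 0.0178). Ahcy (chromosome 2, 155059310 to 155074497, minus strand) shares 38.3% of the words at its 3′ end with Gm4737, Gm5638 and Gm9826, so its value is uncertain. Of the 8 other enzymes it was the one closest to Mat1a across the 10 libraries, with a root mean square difference of 0.43 between their centred log2 values. The other 7 differed from Mat1a by 0.68 to 1.08.

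The methyltransferase transcripts Gnmt and Pemt did not pass the test. Gnmt encodes glycine N-methyltransferase, the abundant hepatic enzyme that consumes surplus SAM. It had 13952, 15251, 16082 and 25468 scaled counts in T cell-low 1 to 4 and 38739, 12021, 29189, 15937, 42208 and 33670 in T cell-high 1 to 6. The split ran through the T cell-high group, with T cell-high 1, 3, 5 and 6 above every other library and T cell-high 2 and 4 in the range of, or below, T cell-low 1, 2 and 3. The mean was 17688 ± 5260 (SD, n = 4) against 28627 ± 12241 (SD, n = 6), and the log2 fold change was -0.60 (SE 0.35, 95% interval -1.36 to 0.17, limma adjusted p = 0.244). Against T cell-high 2 and 4 alone, whose mean was 13978, the direction turned to 0.31 (limma adjusted p = 0.742). That fit leaves out the libraries where Gnmt was highest, so its log2 fold change had to rise.

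Pemt, which methylates phosphatidylethanolamine to phosphatidylcholine, was the enzyme with the narrowest range over the 10 libraries. It had 2003, 1842, 2003 and 1309 scaled counts in T cell-low 1 to 4 and 1454 to 1931 (median 1717) in T cell-high livers, the highest library being 1.53 times the lowest. Its log2 fold change was 0.04 (SE 0.18, 95% interval -0.34 to 0.43, limma adjusted p = 0.882), with a range of -0.019 to 0.19 over single libraries left out and -0.061 against T cell-high 2 and 4 alone. Gnmt minus Pemt on the log2 scale was 2.80 to 4.28 in T cell-low livers and 2.64 to 4.53 in the others.

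**Figure D2:**
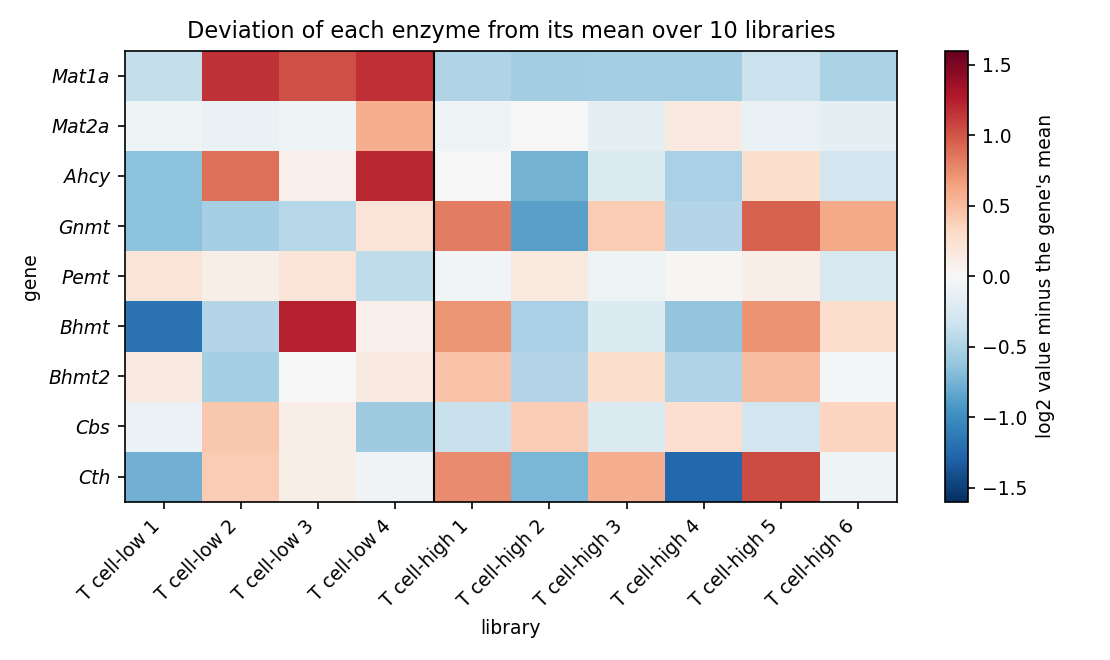
Log2 value of each enzyme (rows) in each library (columns) minus that gene's mean over the 10 libraries, from blue (lower) to red (higher), with a line between the groups. Mat1a is high in T cell-low 2, 3 and 4, whereas Gnmt and Cth are high in T cell-high 1, 3 and 5 and low in T cell-high 2 and 4.

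Both betaine-homocysteine methyltransferase genes lie on chromosome 13 on the minus strand, Bhmt at 93616675 to 93637961 and Bhmt2 at 93655720 to 93674302, with 17758 bases between them. Bhmt, whose product returns homocysteine to methionine, had 7083, 11583, 37463 and 16974 scaled counts in T cell-low 1 to 4. T cell-high livers had 10348 to 26382, with a median of 16632. The lowest and the highest of all 10 libraries were thus both T cell-low, and the T cell-high range lay between them. The log2 fold change was -0.14 (SE 0.42, 95% interval -1.05 to 0.77, limma adjusted p = 0.835). Leaving out T cell-low 1 gave 0.22 and leaving out T cell-low 3 gave -0.58, and neither value passed. It was 0.49 against T cell-high 2 and 4 alone (limma adjusted p = 0.757), and with a replicate block 0.082 (0.937).

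Bhmt2, whose product uses S-methylmethionine as donor, had 435, 272, 393 and 435 scaled counts in T cell-low 1 to 4 and 282 to 555 (median 433) in T cell-high livers. T cell-high 1, 3 and 5 lay above all T cell-low libraries, while T cell-high 2 and 4 were among the lowest. The log2 fold change was -0.11 (SE 0.25, 95% interval -0.65 to 0.43, limma adjusted p = 0.787). The value was 0.41 against T cell-high 2 and 4 alone (limma adjusted p = 0.647) and 0.050 without T cell-low 2 (0.923). The neighbours did not keep a fixed balance, since Bhmt minus Bhmt2 on the log2 scale ran from 4.02 (T cell-low 1) to 6.57 (T cell-low 3) and stayed between 4.85 and 5.65 in T cell-high livers. The 3′ ends of Bhmt and Bhmt2 share 27.1% and 32.5% of their words with other genes, which makes both values uncertain.

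The transsulfuration enzymes did not pass either. Cbs, which condenses homocysteine with serine, had 6276, 8984, 7174 and 4520 scaled counts in T cell-low 1 to 4 and 5207 to 8782 (median 6872) in T cell-high livers. The group means were nearly equal, at 6739 ± 1859 (SD, n = 4) and 6948 ± 1671 (SD, n = 6), with a log2 fold change of -0.05 (SE 0.24, 95% interval -0.57 to 0.46, limma adjusted p = 0.894), and the value ran from -0.20 to 0.13 over single libraries left out. Within the T cell-high group, T cell-high 2, 4 and 6 had 8062 to 8782 and T cell-high 1, 3 and 5 had 5207 to 5683.

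Cth, which cleaves cystathionine to cysteine, had 440, 996, 805 and 722 scaled counts in T cell-low 1 to 4 and 1273, 453, 1120, 314, 1553 and 715 in T cell-high 1 to 6. The T cell-high libraries enclosed the T cell-low range, with T cell-high 1, 3 and 5 above it and T cell-high 4 below it. The log2 fold change was -0.13 (SE 0.42, 95% interval -1.04 to 0.77, limma adjusted p = 0.842). Against T cell-high 2 and 4 alone it was 0.91 (limma adjusted p = 0.527), and over single libraries left out it ran from -0.40 to 0.10. Cth spread widely in T cell-high livers, with an SD of 0.906 on the log2 scale and 91.7% of tested genes below it. Cbs minus Bhmt, a comparison of the 2 fates of homocysteine, was -2.38 to -0.17 in T cell-low livers, while T cell-high livers had -2.32 to -0.35, and the ranges overlapped almost fully.

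**Figure D3:**
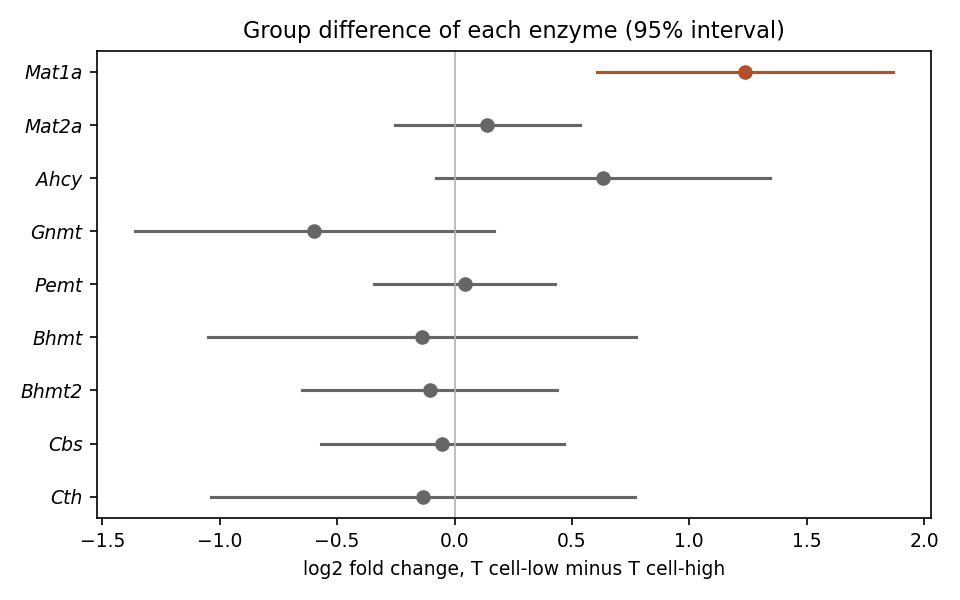
Log2 fold change of each enzyme, T cell-low minus T cell-high, with its 95% interval from limma over 4 and 6 libraries. Mat1a (1.24, coloured) is the enzyme whose adjusted p is below 0.05, and the intervals of the other 8 include 0.

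Genes with the profile nearest to 3 of the enzymes were sought among 7736 genes whose mean reached 50, by the root mean square difference of centred log2 values over the 10 libraries. Nearest to Mat1a were Rbfox2, a splicing regulator (0.170), Rnf149, a ubiquitin ligase (0.173), and Serinc3, a membrane protein (0.174). Rbfox2 had 173 to 195 scaled counts in T cell-high livers, 242 in T cell-low 1 and 467 to 553 in the other T cell-low libraries. Rnf149 had 1606 in T cell-low 1 against 4178 to 6252 in the other T cell-low libraries. It shares 50.8% of its 3′ end words with Gm15832, so its value is uncertain. Nearest to Mat2a were Cux1 (0.124), Ncoa2 (0.133) and Ppp1r12a (0.134), of which 0 passed the test. Nearest to Gnmt were the noncoding 2010320M18Rik (0.158), the actin cross-linker Actn4 (0.161) and Rtraf (0.168). Actn4 had 791 to 1134 scaled counts in T cell-high 1, 3, 5 and 6 and 326 to 598 in the other 6 libraries, the same division as Gnmt.

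Around the 9 enzymes, genes of 7 connected pathways were lower more often than higher in T cell-low livers. Of 92 tested genes in 7 lists that leave out the 9 enzymes, 23 fell (25%, against 7.39% of all tested genes), 4 rose (4.35%, against 5.39%) and 65 did not pass. Their median log2 fold change was -0.48, beside 0.003 over all genes tested, with no test of the lists. The lists were chosen with earlier results of these data known, so these shares are a description and not independent support. Leaving out T cell-low 1, 2, 3 or 4 made the number that fell 37, 1, 14 and 2, and leaving out T cell-high 1, 3, 5 or 6 made it 11, 10, 11 and 10. The number that rose was then 13 for T cell-low 1 and 1 for each of the other 7 of these libraries. Against T cell-high 2 and 4 alone, 0 pathway genes were called in either direction by limma, as for all genes. With every library brought to the same total, 30 fell and 1 rose, beside 1068 lower and 421 higher among all genes tested.

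**Figure D4:**
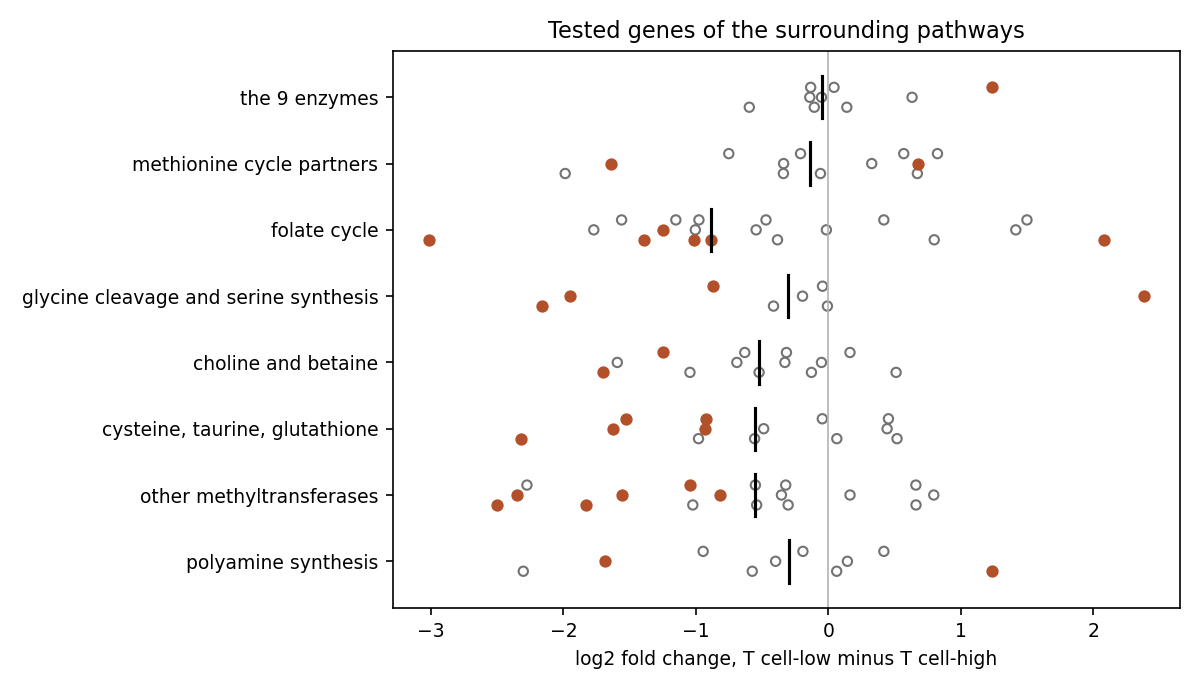
Log2 fold change (T cell-low minus T cell-high) of each tested gene in the list of 9 enzymes and in 7 connected pathways, filled where the adjusted p is below 0.05, with a black bar at each list's median. The medians of the 7 lists lie between -0.89 (folate cycle) and -0.14 (methionine cycle partners).

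Among 12 partners of the cycle 1 rose and 1 fell. Of all tested genes 5.39% were higher and 7.39% lower, so these counts say nothing about the partners as a group. Ahcyl2, a relative of Ahcy that acts in signalling rather than as a hydrolase, had 8.3 to 26.4 scaled counts in T cell-low livers, while T cell-high livers had 23.9 to 74.7, with a log2 fold change of -1.64 (SE 0.39, limma adjusted p = 0.0237). Mri1, which salvages methionine from methylthioadenosine, had 128 to 217 against 86.1 to 115 without overlap (0.68, SE 0.21, adjusted p = 0.04998).

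In the folate cycle 5 of 19 tested genes fell and 1 rose. Shmt1, the cytosolic enzyme that moves a carbon from serine to folate, had 355 ± 87.9 scaled counts in T cell-low (n = 4) against 875 ± 315 in T cell-high livers (n = 6), without overlap (log2 fold change -1.25, SE 0.29, limma adjusted p = 0.023). Fpgs, which adds glutamate tails that keep folate in the cell, had 55.8 ± 62 against 466 ± 328 (-3.02, SE 0.85, adjusted p = 0.0401). Its T cell-high values ran from 35 in T cell-high 2 and 136 in T cell-high 4 to 873, so it followed the division within that group too. The folate transporter gene Slc46a1 had 226 ± 72.8 against 412 ± 100 (-0.89, SE 0.26, adjusted p = 0.044).

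Serine and glycine genes moved in both directions, with 3 of 8 tested lower and 1 higher. Sdsl, a serine dehydratase-like gene, had 44.4 to 80.2 scaled counts in T cell-high livers, 105 in T cell-low 1 and 350 to 685 in the other T cell-low libraries, with a log2 fold change of 2.38 (SE 0.43, limma adjusted p = 0.012). Srr, which makes D-serine, had 251 ± 229 against 726 ± 79.4 (-1.95, SE 0.42, adjusted p = 0.0195), and Agxt, a peroxisomal glyoxylate aminotransferase, had 836 ± 199 against 1498 ± 131 (-0.87, SE 0.19, adjusted p = 0.0197). For all 3 the groups did not overlap.

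Choline and betaine genes were lower in 2 of 13 tested and higher in 0. With 7.39% of all tested genes lower, a count this small says little about the list. Cept1, which catalyses a last step of phosphatidylcholine synthesis, had 74.3 to 242 scaled counts in T cell-low livers, while T cell-high livers had 208 to 513, with a log2 fold change of -1.70 (SE 0.34, limma adjusted p = 0.0166). Aldh7a1, which oxidises betaine aldehyde, had 404 ± 156 against 1002 ± 401 (-1.25, SE 0.36, adjusted p = 0.0419).

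Downstream of transsulfuration, 5 of 13 tested genes of cysteine, taurine and glutathione metabolism fell and 0 rose. Ethe1, the mitochondrial persulfide dioxygenase, had 455 to 746 scaled counts in T cell-low livers, while T cell-high livers had 953 to 1250 without overlap (log2 fold change -0.93, SE 0.18, limma adjusted p = 0.0139). Gclc, the catalytic subunit that limits glutathione synthesis, had 1214, 345, 331 and 381 in T cell-low 1 to 4 and 1041 to 1903 in T cell-high livers (-1.62, SE 0.33, adjusted p = 0.017). Gclc in T cell-low 1 lay within the T cell-high range, as Mat1a did. Fmo1, a flavin monooxygenase that oxidises hypotaurine, had 174 ± 93.2 against 458 ± 94.7 (-1.52, SE 0.31, adjusted p = 0.017).

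In a list of other SAM-dependent methyltransferases, 6 of 17 tested genes were lower and 0 higher. The list also counts Gatm, which is not a methyltransferase and did not pass. Gamt, which makes creatine from guanidinoacetate, had 562, 144, 449 and 147 scaled counts in T cell-low 1 to 4 and 1199 to 1661 in T cell-high livers, with a log2 fold change of -2.35 (SE 0.36, limma adjusted p = 0.00835). Inmt, which methylates indole amines, had 4273, 492, 2286 and 332 against 5882 to 7014 (-2.50, SE 0.56, adjusted p = 0.0204). The groups did not overlap for either gene, and T cell-low 1 was the T cell-low library nearest to the T cell-high range. Mettl7b, a thiol methyltransferase, had 1228 ± 1154 against 3293 ± 529 (-1.83, SE 0.41, adjusted p = 0.0212). Its value in T cell-low 1 was 2916, within the T cell-high range of 2736 to 4121. The other T cell-low libraries had 451 to 1027.

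Polyamine synthesis draws on decarboxylated SAM. In a list of polyamine genes, which also holds genes of breakdown, 1 of 10 tested rose and 1 fell, both of them genes of breakdown. Both counts are near the shares of all tested genes (5.39% higher, 7.39% lower) and say nothing about the list. The synthesis genes Odc1, Amd1, Srm and Sms did not pass. Amd1 ran from 0 to 649 scaled counts in T cell-low livers and from 0 to 646 in T cell-high livers. Its log2 fold change had an SE of 2.51, so that result says little about Amd1. Sat1, the acetyltransferase that starts polyamine breakdown, had 139 to 336 scaled counts in T cell-high livers, 196 in T cell-low 1 and 610 to 717 in the other T cell-low libraries, with a log2 fold change of 1.23 (SE 0.37, limma adjusted p = 0.0453). Paox, a polyamine oxidase, had 168 ± 121 against 480 ± 125 (-1.69, SE 0.35, adjusted p = 0.017). Its 3′ end is shared in part (48.6%), so its value is uncertain.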

How the data were processed

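Per the labels' protocols, 10 libraries were made from mouse liver RNA with the QuantSeq 3′ mRNA kit in its FWD form. STAR, DESeq2 and the build mm10 are named in the submitters' processing notes, without versions. The read counter and annotation are not named there. The authors deposited a signal for each gene and library, taken here as a gene count scaled with DESeq2, which those notes name; the scaling itself is not given in the sources used here. A median-of-ratios factor computed from it was the same in all libraries (1.02). Values up to 200 steps fell on multiples of their library's commonest low step (within 0.01 of a step) in 5.1% to 7.99% of cases, against 2% for evenly spread values. Whole reads were therefore not recovered, the depth is unknown, and no count test, counting interval or floor was used.

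Genes with a mean of at least 10 were tested on log2(scaled count + 1) with limma 3.58.1 (R 4.3.3), with a variance trend and group as the sole term, two-sided, Benjamini-Hochberg adjusted over all genes tested and called below 0.05. A positive log2 fold change means a higher value in T cell-low livers. The fit was tested on simulated data. Groups and replicate numbers came from sample titles, and columns were matched by the label in each sample's description. The 9 genes and the gene lists were chosen with earlier results of these data known. Named genes are the 9 enzymes, up to 3 called genes of lowest adjusted p per pathway list (or, with none called, the one of highest mean), and the 3 nearest profiles to Mat1a, Mat2a and Gnmt. Positions are from GENCODE vM21 (GRCm38, the assembly of mm10). A gene was called uncertain where 20% or more of the 50-base words from the final 400 bases of its protein-coding transcripts also occur in another gene. Alternatives covered pseudocount, filter, scaling, variance trend, robust option, library weights, a replicate block, libraries left out and the T cell-high libraries that stood apart. Figures used matplotlib 3.10.9 in Python 3.11.15.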

Additional observations from a re-analysis of the deposited data

Results flagged for a closer look

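A library far from the rest of its group was found for 4 genes in 5 of the 54 groups of values examined, where chance gives about 5%. Mat1a was far below its group in T cell-low 1 (50692 scaled counts), and T cell-high 5 (52314) lay above the close cluster of the other T cell-high libraries. Mat2a was far above its group in T cell-low 4 (1530). In T cell-low 1, Gclc (1214) and Paox (348) lay far above the other T cell-low libraries, so that 3 of the 5 values belong to that library.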

How the results depend on the processing

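Of 198 member values under alternatives, 161 kept direction and side of the threshold, 10 (all Mat1a) no longer passed, 1 (Ahcy without T cell-low 1) newly passed and 26 changed sign, among the 7 enzymes other than Mat1a and Ahcy, which were never called. Members called lower were 0 under all 22 alternatives. These are not all separate checks. Rescaling by the median of ratios divided every library by the same factor, so its member values could hardly change. The fit against T cell-high 2 and 4 alone and the covariate fit gave the same fold changes. Genes called were 852 without a variance trend and 3266 with library weights. Against T cell-high 2 and 4 alone, and with the other T cell-high libraries as a covariate, all counts of genes called, members called and pathway genes called were 0 (limma; 1027 and 1788 genes at an unadjusted p below 0.05). Members called higher were 0 with no filter (Mat1a adjusted p = 0.0858). Pathway genes called higher were 2 with a pseudocount of 0.5 or with no filter, 1 with equal totals or no trend, and 9 with library weights. Among all genes tested, 569, 417, 421, 354 and 1432 were higher in these 5 fits, in that order. Equal totals moved the median log2 fold change of all genes to -0.115, and the share of calls that were higher from 42.2% to 28.3%. Leaving out 1 library gave 109 to 3633 genes called, 0 to 2 members called higher, 1 to 13 pathway genes higher and 1 to 37 lower.

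Replicate numbers are shared by the groups, but same-numbered libraries did not deviate together (correlations 0.104, 0.211, -0.0988 and -0.151 over genes), and T cell-low 2 alone correlated best with its own number. With the replicate block 193 genes were called, 0 members higher (Mat1a 1.27, adjusted p = 0.0981), and 1 pathway gene higher and 3 lower, while Bhmt turned to 0.082 and Cth to 0.083.

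Sign changes against T cell-high 2 and 4 alone, and equally with the covariate, gave Gnmt 0.31, Bhmt 0.49, Bhmt2 0.41, Cth 0.91 and Pemt -0.061. Cbs was 0.13 with library weights and Pemt -0.078 with equal totals. Over single libraries left out, the range was -0.029 to 0.20 for Mat2a, -0.58 to 0.22 for Bhmt, -0.21 to 0.050 for Bhmt2, -0.20 to 0.13 for Cbs, -0.40 to 0.10 for Cth and -0.019 to 0.19 for Pemt. The cause of these changes was not tested. Depth is unknown, so its limit on low values cannot be given.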
